A study of Mus musculus with 18 samples.

Results

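Cells obtain cholesterol by making it from acetyl-CoA and by taking it up in lipoproteins, and they dispose of it by export. Synthesis runs through mevalonate, farnesyl diphosphate, squalene and lanosterol, and its enzymes are switched on together by SREBP transcription factors, which are held in the endoplasmic reticulum with Scap by the Insig proteins when sterols are plentiful. Excess cholesterol yields oxysterols, which activate the LXR receptors and thereby the exporters Abca1 and Abcg1 and the ubiquitin ligase Mylip, which degrades lipoprotein receptors. The Niemann-Pick proteins Npc1 and Npc2 release lipoprotein cholesterol from lysosomes.

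The 31 genes described here were chosen by name for these roles, with earlier results of these data known. All 31 were found among the 48023 genes of the count table. They comprised 18 synthesis enzymes, 5 regulators of SREBP activity (Srebf1, Srebf2, Scap, Insig1 and Insig2), the sterol transfer protein Stard4, the lysosomal proteins Npc1 and Npc2, the LXR receptors Nr1h2 and Nr1h3, and the LXR targets Abca1, Abcg1 and Mylip. Not every enzyme of the route is among them. All 31 passed the filter on low counts that left 15071 genes for testing. The genes were measured by RNA sequencing in 1 immortalized line of mouse brown preadipocytes, the precursors of thermogenic brown fat cells, kept in growth medium with fetal bovine serum. Vehicle or recombinant FGF6, a fibroblast growth factor given at 200 ng/ml, was applied for 4, 8 or 24 h, with 3 libraries in each of the 6 groups. The labels number the libraries but do not say whether they came from separate cultures, so the p-values measure the spread between these libraries, which may be technical. The SREBP side below is the 18 enzymes with Insig1 and Stard4 (20 genes), and the LXR side is the receptors and targets (5 genes).

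The 18 libraries held between 24327816 and 33471980 counted reads, and values are given as counts per 1000000 of the scaled library total (CPM). The vehicle 24 h replicate 3 stood apart from the other libraries of its group, with a chi-square per degree of freedom of 34.5 and 37.6 against them, while all other replicate pairs lay between 2.34 and 7.05. Preadipocyte markers were present but moved with treatment: the summed level of the 7-gene list was 1270 to 1330 CPM in vehicle and 336 to 351 CPM in FGF6 libraries at 24 h, a sum carried mainly by Pdgfra, Pdgfrb and Ly6a. On the same list Cd34 went the other way, from 15.7 to 17.5 CPM with vehicle to 40.2 to 46.7 CPM with FGF6 at 24 h, and Dlk1 had 0 counts in every library. Between the same groups at 24 h, the mature adipocyte list went from 5.55 to 6.13 CPM down to 0.0367 to 0.321 CPM, and the endothelial list from 0.715 to 1.19 CPM up to 3.71 to 5.65 CPM. The part of these markers in the results was not tested. Markers of other cell types were low but not all absent. The macrophage markers Adgre1 and Ptprc never exceeded 2 counts, while Csf1r reached 128 and Cd68 523 counts in a library. Of the endothelial markers, Pecam1 never exceeded 7 counts, Kdr reached 57 and Cdh5 reached 114 counts with FGF6 at 24 h against at most 3 with vehicle. The highest levels of the adipocyte markers were 0.701 CPM for Adipoq, 1.95 CPM for Plin1 and 4.66 CPM for Cidec, and Lep had 0 counts. A lower level in a bulk library cannot be told apart from fewer cells that express the gene.

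The promoters below are shown because they belong to genes on which the results turn, 3 of the SREBP side and 1 of the LXR side. Each runs from 250 bases before the annotated start to 50 bases after it, 5′ to 3′ on the gene's strand, and was taken from RefSeq on GRCm38.p6. Capitals mark the motifs searched on both strands: CCAAT (the NF-Y box, also seen as ATTGG), TCACNCCAC (a sterol regulatory element, read by SREBP) and CACGTG (the E-box, which reads alike on both strands). The windows lie at chr13:119690101-119690400 on the plus strand, chr5:114444019-114444318 on the plus strand, chr5:28071162-28071461 on the plus strand and chr4:53159846-53160145 on the minus strand, in that order.
Hmgcs1: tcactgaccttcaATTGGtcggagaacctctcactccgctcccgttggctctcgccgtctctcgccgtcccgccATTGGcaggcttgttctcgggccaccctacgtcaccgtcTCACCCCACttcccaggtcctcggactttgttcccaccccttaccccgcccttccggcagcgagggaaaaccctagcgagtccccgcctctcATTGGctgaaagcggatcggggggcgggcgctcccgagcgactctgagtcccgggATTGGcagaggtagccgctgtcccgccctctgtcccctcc
Mvk: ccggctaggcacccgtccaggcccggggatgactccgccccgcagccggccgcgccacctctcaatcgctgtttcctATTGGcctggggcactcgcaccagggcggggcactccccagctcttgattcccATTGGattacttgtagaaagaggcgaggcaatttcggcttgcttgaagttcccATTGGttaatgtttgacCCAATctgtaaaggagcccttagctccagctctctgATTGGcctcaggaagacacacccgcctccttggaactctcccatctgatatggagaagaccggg
Insig1: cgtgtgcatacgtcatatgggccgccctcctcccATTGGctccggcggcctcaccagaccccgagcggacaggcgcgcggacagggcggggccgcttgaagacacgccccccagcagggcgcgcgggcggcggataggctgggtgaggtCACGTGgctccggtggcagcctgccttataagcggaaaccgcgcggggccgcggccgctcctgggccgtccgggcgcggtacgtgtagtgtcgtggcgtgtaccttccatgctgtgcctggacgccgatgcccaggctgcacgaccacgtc
Abca1: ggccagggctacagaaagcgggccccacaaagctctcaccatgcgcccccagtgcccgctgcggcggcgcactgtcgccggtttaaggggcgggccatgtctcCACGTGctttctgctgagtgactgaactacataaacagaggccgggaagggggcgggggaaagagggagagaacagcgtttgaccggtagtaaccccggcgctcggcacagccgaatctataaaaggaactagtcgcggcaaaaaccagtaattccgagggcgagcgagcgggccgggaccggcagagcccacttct

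Of the 31 genes, 25 had a window in the RefSeq table. CCAAT was found in 20 of these 25 windows and in 14 of the 15 windows of synthesis enzymes, Acat2 being the exception, against 41.1% of the 27025 genes with a window. Hmgcs1 was the 1 member whose window held TCACNCCAC, at positions 137 to 129 before the start, and 1.44% of all genes held these letters. CACGTG was found in 6 members (Hsd17b7, Sc5d, Dhcr7, Scap, Insig1 and Abca1) and in 8.09% of all genes. An exact form of the direct repeat read by LXR, AGGTCA followed by 4 bases and a second AGGTCA, was in none of the 25 windows. It was in 0.0148% of all genes. Only exact copies were searched, and letters this rare are nearly always missing. Their absence therefore does not show that a window lacks an LXR element. These letter matches describe the windows and do not show that a factor binds.

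The first comparison asked how the 31 genes stood with FGF6 against vehicle at each time. At 24 h, 28 members were lower with FGF6 and Scap was higher, and 2 were not called (Srebf1 and Nr1h2), while 37.9% of all tested genes were called lower and 35.9% higher at that time. At 8 h, 27 were lower, Scap was higher and 3 were not called (Idi1, Srebf1 and Nr1h2), against 38.4% lower and 32.4% higher of all genes. The 4 h picture was mixed, with 17 members lower, 7 higher and 7 not called, against 34.2% lower and 28.6% higher of all genes. A call is an adjusted p under 0.05 in edgeR's quasi-likelihood test. Where the arms are compared, a fall or rise is a level lower or higher with FGF6 than with vehicle at the same time. The median log2 fold change of the 31 members was -0.24 at 4 h, -0.56 at 8 h and -0.64 at 24 h, where that of all tested genes was -0.05, -0.05 and -0.02. Without the deviating vehicle 24 h library, 27 members were lower at 24 h in place of 28. At 4 h the split depended on the scaling, since library sizes alone gave 19 lower and 4 higher and moved the median of all genes to -0.15.

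The separation of the libraries gave similar counts without a test. All 3 FGF6 libraries lay below all 3 vehicle libraries for 28 members at 24 h, for 25 at 8 h and for 17 at 4 h, where such a separation was seen for 38.1%, 39.6% and 36.1% of all tested genes. At 4 h, 7 members had all FGF6 libraries above, against 30.1% of all genes. This held for 2 members at 8 h and 1 at 24 h, against 34.2% and 36.7% of all genes. Falls of at least 2-fold were limited to 6 members at 8 h (Hmgcs1, Fdps, Insig2, Nr1h3, Abca1 and Mylip) and 6 at 24 h (Mvk, Dhcr7, Insig2, Npc2, Abca1 and Mylip), against 10.9% and 15.3% of all genes. Insig2, Abca1 and Mylip were on both lists. With 3 libraries against 3, an exact permutation test for a single gene cannot give a p below 0.1.

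**Figure D1:**
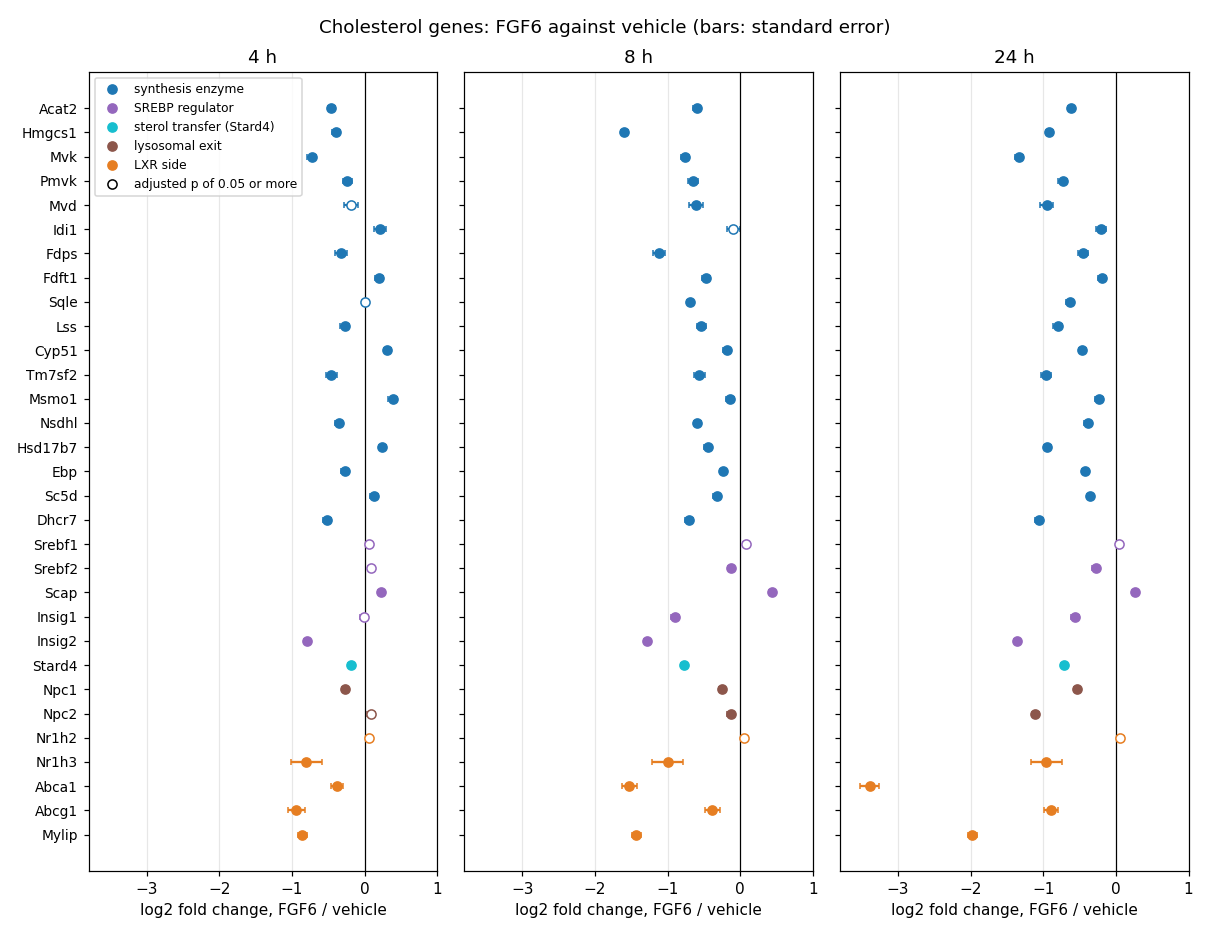
Log2 fold changes of the 31 genes with FGF6 against vehicle at 4, 8 and 24 h (horizontal axes), with bars for the standard error of the edgeR estimate from 3 libraries per group; open circles have an adjusted p of 0.05 or more. Points of the synthesis enzymes lie on both sides of 0 at 4 h and all below 0 at 24 h, and Abca1 lies lowest at 24 h (-3.39).

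The 7 members from acetyl-CoA to farnesyl diphosphate were mostly lower with FGF6 than with vehicle at the later times. From 8 to 24 h all 7 rose in both arms, where 25.5% of all genes rose with vehicle and 31.1% with FGF6. Against vehicle, 5 of these 7 genes were lower and Idi1 was higher at 4 h, 6 were lower at 8 h and 7 at 24 h. Of all genes, 34.2%, 38.4% and 37.9% were lower at these times, and 28.6% were higher at 4 h. Hmgcs1 (ENSMUSG00000093930, GRCm38 chr13:119690379-119708260, plus strand), which joins acetoacetyl-CoA and acetyl-CoA, stood at 269.5, 244.9 and 256.4 CPM in the vehicle libraries and 209.8, 188.6 and 187.5 CPM in the FGF6 libraries at 4 h. At 8 h the vehicle libraries held 302.8, 285.0 and 295.6 CPM and the FGF6 libraries 105.1, 92.9 and 94.3 CPM. By 24 h these had become 741.7, 821.8 and 834.6 CPM and 408.0, 429.9 and 432.7 CPM. The groups did not overlap at any time, and FGF6 libraries of 24 h were above vehicle libraries of 4 h. Its log2 fold change was -0.40 (SE 0.051, adjusted p = 2.44e-07) at 4 h, -1.60 (SE 0.053, adjusted p = 5.64e-19) at 8 h, a 3.02-fold fall, and -0.92 (SE 0.051, adjusted p = 1.34e-14) at 24 h.

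Mvk, mevalonate kinase, had the largest fall against vehicle of any synthesis enzyme at 24 h. Its levels were 105.1, 92.8 and 91.1 CPM with vehicle and 62.4, 59.0 and 52.5 CPM with FGF6 at 4 h. The corresponding values were 114.8, 109.0 and 102.7 CPM and 63.6, 64.4 and 64.7 CPM at 8 h, and 196.6, 213.8 and 205.8 CPM and 74.7, 82.5 and 86.8 CPM at 24 h. All FGF6 libraries were below all vehicle libraries of every time. The log2 fold change was -0.73 at 4 h, -0.76 at 8 h and -1.34 (SE 0.058, adjusted p = 9.28e-17) at 24 h, a 2.53-fold fall. Pmvk and Mvd, the next enzymes in line, differed by -0.24 and -0.19 at 4 h, -0.65 and -0.61 at 8 h, and -0.73 and -0.95 at 24 h. The Mvd value at 4 h was not called (adjusted p = 0.0848), but without the FGF6 4 h replicate 1 it was -0.27 with adjusted p = 0.0184; the Pmvk call at 4 h was lost without the FGF6 4 h replicate 3 (-0.16, adjusted p = 0.0583).

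Fdps, which makes farnesyl diphosphate, differed most from vehicle at 8 h. The vehicle libraries held 25.4, 22.8 and 25.2 CPM and the FGF6 libraries 11.5, 11.5 and 10.7 CPM, with no overlap, giving a log2 fold change of -1.12 (SE 0.084, adjusted p = 8.65e-12). At 24 h the values were 42.4, 47.3 and 41.6 CPM with vehicle and 31.6, 32.9 and 31.6 CPM with FGF6, again without overlap but with a smaller log2 fold change of -0.45 (SE 0.07, adjusted p = 2.64e-06). Acat2, an acetoacetyl-CoA thiolase, was lower throughout, with log2 fold changes of -0.46, -0.60 and -0.62, but 39.1% of its 50-base stretches also occur in other genes such as Acat3, so its reads cannot be assigned with certainty. The share of such stretches found in other genes was 26.2% for Fdps, 26.5% for Fdft1, 25.3% for Idi1 and 11.6% for Hmgcs1. Fdps also overlaps Gm43738 on the same strand over 1124 exonic bases.

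Idi1, the isopentenyl diphosphate isomerase, had the smallest later differences of this stretch. It was higher at 4 h (0.21, SE 0.084, adjusted p = 0.035), not called at 8 h (-0.09, adjusted p = 0.368) and lower at 24 h (-0.20, SE 0.074, adjusted p = 0.0158). The 4 h call was lost without the FGF6 4 h replicate 1 (0.18, adjusted p = 0.0958) or the vehicle 4 h replicate 3 (0.15, adjusted p = 0.167). The 24 h call was lost without the FGF6 24 h replicate 1 (-0.13, adjusted p = 0.171) or 3 (-0.17, adjusted p = 0.087), and without the vehicle 24 h replicate 2 (-0.12, adjusted p = 0.196) or 3 (-0.17, adjusted p = 0.0794).

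From farnesyl diphosphate to lanosterol, 3 enzymes act in turn, and they differed at 4 h. Fdft1, squalene synthase, was higher (0.20, SE 0.055, adjusted p = 0.0031), Sqle, squalene epoxidase, did not differ detectably (-0.00, adjusted p = 0.996), and Lss, lanosterol synthase, was lower (-0.27, SE 0.062, adjusted p = 0.00046). All 3 were lower at 8 h and at 24 h, against 38.4% and 37.9% of all genes. Sqle stood at 261.2, 235.1 and 247.2 CPM with vehicle and 259.1, 240.4 and 243.8 CPM with FGF6 at 4 h, so that the groups overlapped. They were apart at 8 h, with 263.8, 239.8 and 248.6 CPM against 162.9, 150.7 and 152.9 CPM, and at 24 h, with 534.6, 559.4 and 563.5 CPM against 340.9, 359.1 and 364.5 CPM. The log2 fold change of Sqle was -0.69 (SE 0.044, adjusted p = 3.31e-13) at 8 h and -0.64 (SE 0.043, adjusted p = 7.62e-13) at 24 h. Fdft1 had the smallest fall of the 18 enzymes at 24 h, -0.20 (SE 0.052, adjusted p = 0.00166), and its call was lost without the FGF6 24 h replicate 1 (-0.12, adjusted p = 0.0634). Fdft1 shares 774 exonic bases with Ctsb on the opposite strand, and whether strand was used in counting is not given in the sources used here.

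The 8 members among the enzymes that turn lanosterol into cholesterol split evenly at 4 h, when Cyp51, Msmo1, Hsd17b7 and Sc5d were higher and Tm7sf2, Nsdhl, Ebp and Dhcr7 were lower. Lbr, a C14-reductase given below, is not a member. At 4 h, 28.6% of all genes were higher and 34.2% lower. All 8 were lower at 8 h and at 24 h, against 38.4% and 37.9% of all genes. Cyp51, the lanosterol demethylase, held 406.7, 375.7 and 381.9 CPM with vehicle and 501.6, 471.0 and 471.2 CPM with FGF6 at 4 h, the FGF6 libraries all being higher. At 24 h it held 648.2, 718.8 and 745.8 CPM with vehicle and 490.4, 510.4 and 530.3 CPM with FGF6, the FGF6 libraries all being lower. Its log2 fold change went from 0.31 (SE 0.049, adjusted p = 5.09e-06) at 4 h to -0.46 (SE 0.049, adjusted p = 4.35e-09) at 24 h.

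Msmo1, the sterol C4-methyl oxidase, had the largest rise of any member at 4 h. It stood at 237.7, 210.4 and 227.9 CPM with vehicle and 310.7, 281.5 and 289.2 CPM with FGF6, so that all FGF6 libraries were higher. Its log2 fold change at 4 h was 0.38 (SE 0.056, adjusted p = 1.67e-06). At 8 h the groups overlapped, at 256.3, 214.5 and 225.7 CPM and 225.5, 209.3 and 198.2 CPM. That difference of -0.14 (SE 0.056, adjusted p = 0.0323) lost its call without the FGF6 8 h replicate 2 (-0.13, adjusted p = 0.0795) or 3 (-0.05, adjusted p = 0.471) and without the vehicle 8 h replicate 1 (-0.06, adjusted p = 0.331). At 24 h Msmo1 was lower, with a log2 fold change of -0.23 (SE 0.055, adjusted p = 0.000492).

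Hsd17b7, a sterol ketone reductase, went from 0.24 (SE 0.048, adjusted p = 0.000116) at 4 h to -0.94 (SE 0.048, adjusted p = 2.47e-15) at 24 h, the largest such turn among the enzymes. At 4 h its vehicle libraries held 108.5, 94.2 and 97.4 CPM and its FGF6 libraries 118.0, 115.1 and 121.6 CPM. By 24 h the vehicle libraries had reached 193.2, 205.7 and 208.4 CPM, while the FGF6 libraries held 103.5, 103.5 and 109.2 CPM. FGF6 libraries were thus all above vehicle at 4 h and all below at 24 h. Sc5d, which sets the C5 double bond, was higher at 4 h by 0.13 (SE 0.049, adjusted p = 0.027) and lower at 24 h, the log2 fold change being -0.36 (SE 0.046, adjusted p = 1.57e-07). Its 4 h call was lost without the FGF6 4 h replicate 1 (0.12, adjusted p = 0.0655), the vehicle 4 h replicate 2 (0.11, adjusted p = 0.0892) or the vehicle 4 h replicate 3 (0.10, adjusted p = 0.126).

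Dhcr7, which catalyses the last step from 7-dehydrocholesterol, was lower at every time. It held 46.2, 42.9 and 42.4 CPM with vehicle and 31.2, 28.4 and 32.0 CPM with FGF6 at 4 h. At 24 h it held 99.7, 104.6 and 97.5 CPM and 48.0, 46.7 and 50.5 CPM. No groups overlapped, and the log2 fold change was -0.52 (SE 0.055, adjusted p = 6.36e-09) at 4 h, -0.71 at 8 h and -1.06 (SE 0.051, adjusted p = 7.06e-16) at 24 h. Tm7sf2, a sterol C14-reductase, and the C4 demethylation enzyme Nsdhl changed by -0.46 and -0.36 at 4 h and by -0.96 and -0.39 at 24 h. Ebp, the sterol isomerase, ranged from -0.24 at 8 h to -0.43 at 24 h. Tm7sf2 shares 532 exonic bases with Vps51 on the same strand.

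**Figure D2:**
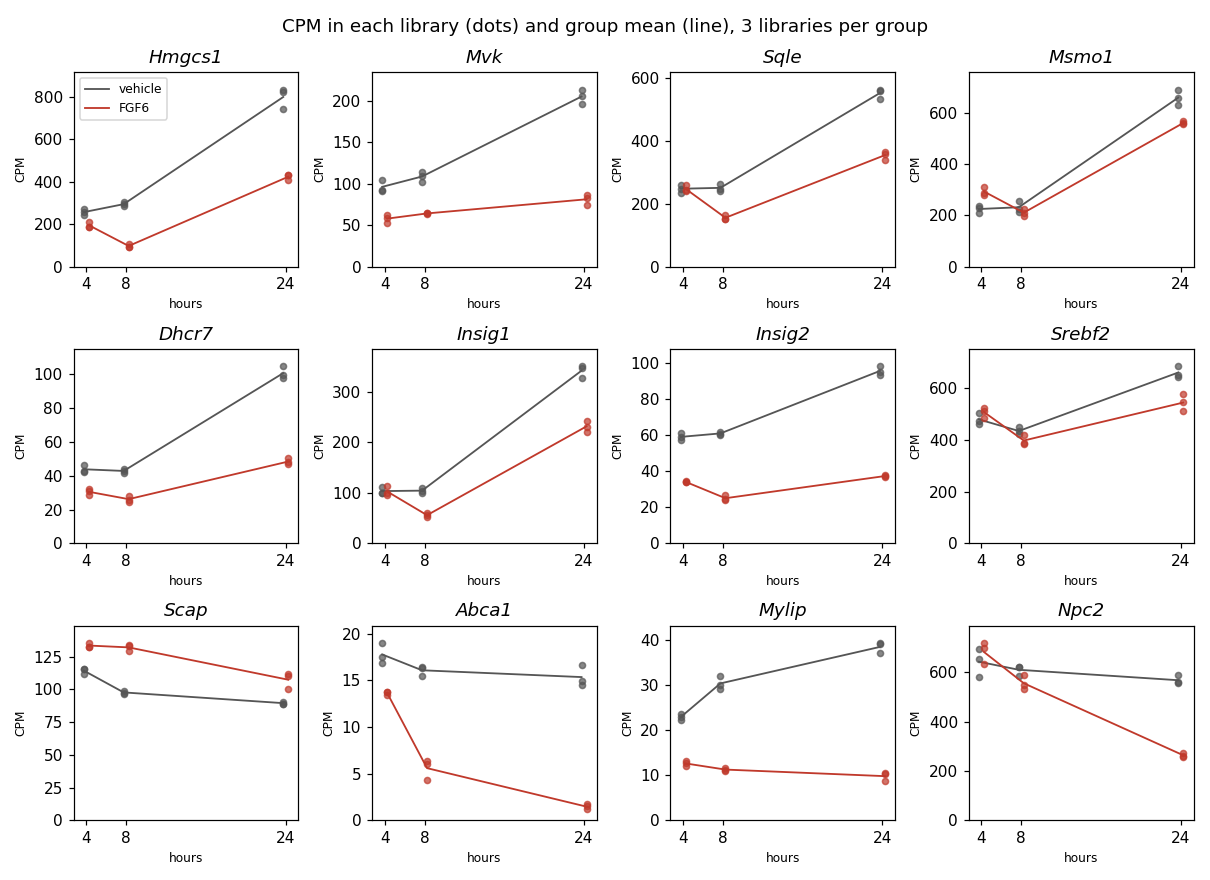
CPM of 12 of the 31 genes in each library (dots, 3 per group) and the group means (lines) against hours of treatment, with vehicle in grey and FGF6 in red; each vertical axis starts at 0. Vehicle levels of the enzymes and of Insig1 and Insig2 are highest at 24 h, Scap is the 1 gene shown with FGF6 above vehicle at all 3 times, and Abca1 in FGF6 libraries falls from 13.4 to 13.8 CPM at 4 h to 1.17 to 1.71 CPM at 24 h.

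Among the SREBP regulators, the transcripts of the 2 factors themselves moved little. Srebf1, the form that also drives fatty acid synthesis, is a target of both SREBP and LXR and was put on neither side. It was not called at any time, with log2 fold changes of 0.06 at 4 h, 0.08 at 8 h and 0.04 at 24 h. Omitting the FGF6 8 h replicate 3 (0.12, adjusted p = 0.022), the vehicle 8 h replicate 1 (0.10, adjusted p = 0.0356) or the vehicle 24 h replicate 2 (0.11, adjusted p = 0.0235) made it pass as higher. At 8 h all its FGF6 libraries lay above all vehicle libraries. It passed there with DESeq2 (0.12, adjusted p = 0.00902) and with edgeR on the 8 h libraries alone (0.11, adjusted p = 0.00875). It also passed with at least 10 counts in every library (0.10, adjusted p = 0.0348). Srebf2, the form that mainly drives cholesterol synthesis, stood at 650.8, 682.4 and 643.4 CPM with vehicle and 510.5, 544.2 and 574.5 CPM with FGF6 at 24 h, without overlap, and was lower, with a log2 fold change of -0.28 (SE 0.044, adjusted p = 3.17e-06). At 8 h its log2 fold change was -0.13 (SE 0.044, adjusted p = 0.0122), a call lost without the FGF6 8 h replicate 2 (-0.11, adjusted p = 0.0577) or 3 (-0.06, adjusted p = 0.297) and without the vehicle 8 h replicate 1 (-0.10, adjusted p = 0.0647). At 4 h it was 0.08 and not called (adjusted p = 0.103), but passed as higher without the FGF6 4 h replicate 3 (0.14, adjusted p = 0.0182) or the vehicle 4 h replicate 1 (0.12, adjusted p = 0.0272).

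Scap, which escorts SREBP to the Golgi, was the only member called higher at all 3 times. It stood at 98.9, 96.7 and 97.4 CPM with vehicle and 134.2, 133.0 and 129.0 CPM with FGF6 at 8 h. At 24 h the values were 88.8, 90.5 and 89.2 CPM and 100.4, 109.9 and 111.8 CPM, again with no overlap. Its log2 fold change was 0.22 (SE 0.034, adjusted p = 3.43e-06) at 4 h, 0.44 (SE 0.035, adjusted p = 2.79e-11) at 8 h and 0.26 (SE 0.035, adjusted p = 2.75e-07) at 24 h. Scap shares 985 exonic bases with 5830462I19Rik on the opposite strand, which touches this result if strand was not used in counting.

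The retention proteins moved the other way. Insig1, itself an SREBP target, did not differ detectably at 4 h (-0.01, adjusted p = 0.883), with 111.3, 99.5 and 99.9 CPM against 112.8, 95.1 and 100.4 CPM and overlapping groups. It fell to 60.5, 55.5 and 51.9 CPM with FGF6 at 8 h while vehicle libraries held 110.4, 103.0 and 99.99 CPM, a log2 fold change of -0.90 (SE 0.061, adjusted p = 1.17e-12). At 24 h vehicle libraries had risen to 327.8, 350.2 and 347.2 CPM and FGF6 libraries held 220.8, 230.9 and 243.1 CPM, a log2 fold change of -0.56 (SE 0.056, adjusted p = 1.58e-09). Insig2 (ENSMUSG00000003721, GRCm38 chr1:121304353-121332589, minus strand), which retains SREBP as Insig1 does, was lower at all times. It stood at 58.7, 57.3 and 61.0 CPM against 34.0, 34.0 and 34.4 CPM at 4 h, and at 61.9, 60.9 and 60.0 CPM against 24.4, 26.6 and 24.2 CPM at 8 h. At 24 h it stood at 95.2, 98.0 and 93.3 CPM against 37.5, 37.7 and 36.8 CPM. Every FGF6 library of any time was below every vehicle library, and the log2 fold change widened from -0.79 (SE 0.042, adjusted p = 1.74e-14) to -1.28 (SE 0.043, adjusted p = 9.01e-19) and -1.36 (SE 0.041, adjusted p = 5.7e-20), a 2.56-fold fall at 24 h.

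Stard4, a soluble carrier that moves sterols between membranes and an SREBP target, followed the enzymes. It was lower, with a log2 fold change of -0.19 (SE 0.04, adjusted p = 0.000279) at 4 h, -0.78 (SE 0.041, adjusted p = 7.03e-15) at 8 h and -0.72 (SE 0.039, adjusted p = 1.05e-14) at 24 h. At 24 h the vehicle libraries held 323.6, 351.8 and 360.6 CPM and the FGF6 libraries 210.6, 211.7 and 206.6 CPM. As a group, the 20 genes of the SREBP side had 6 higher, 11 lower and 3 not called at 4 h. At 8 h 19 were lower, and at 24 h 20 were. Of all genes, 34.2%, 38.4% and 37.9% were lower at these times, and 28.6% were higher at 4 h. The median log2 fold changes of the 20 genes were -0.21, -0.60 and -0.63. These medians kept their sign under every scaling tried. Without the vehicle 24 h replicate 3, 19 of the 20 remained called at 24 h, Idi1 being lost.

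The lysosomal exit genes were lower with FGF6, mostly at 24 h. Npc2, the soluble partner, stood at 555.4, 590.1 and 559.7 CPM with vehicle and 258.3, 259.8 and 273.3 CPM with FGF6 at 24 h, groups that did not overlap. That was a log2 fold change of -1.11 (SE 0.053, adjusted p = 8.66e-16). At 8 h it was -0.14 (SE 0.052, adjusted p = 0.0247), a call lost without the FGF6 8 h replicate 2 (-0.10, adjusted p = 0.129) or 3 (-0.08, adjusted p = 0.238) and without the vehicle 8 h replicate 2 (-0.12, adjusted p = 0.0827) or 3 (-0.12, adjusted p = 0.0704). At 4 h it was 0.09 and not called (adjusted p = 0.157), and passed as higher without the FGF6 4 h replicate 3 (0.16, adjusted p = 0.0101) or the vehicle 4 h replicate 3 (0.15, adjusted p = 0.0231). Npc1, the membrane partner, was lower, with a log2 fold change of -0.28 (SE 0.04, adjusted p = 1.22e-06) at 4 h, -0.25 at 8 h and -0.54 (SE 0.04, adjusted p = 4.7e-12) at 24 h.

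On the LXR side, 4 of the 5 genes were lower at every time and Nr1h2 was not called. Of all genes, 34.2%, 38.4% and 37.9% were lower at 4, 8 and 24 h. The median log2 fold change of the 5 was -0.80 at 4 h, -1.0 at 8 h and -0.96 at 24 h, each time the value of Nr1h3. Without the vehicle 24 h replicate 3 the 24 h median was -0.84. The median of the 3 targets was -0.86, -1.43 and -1.98, each time the value of Mylip. Abca1 (ENSMUSG00000015243, GRCm38 chr4:53030787-53159895, minus strand), the cholesterol and phospholipid exporter of the plasma membrane, had the largest change of all 31 genes. It held 19.0, 16.9 and 17.5 CPM with vehicle and 13.4, 13.8 and 13.7 CPM with FGF6 at 4 h. At 8 h it held 16.5, 15.4 and 16.3 CPM and 6.35, 4.34 and 6.08 CPM. At 24 h vehicle libraries still held 16.7, 14.9 and 14.5 CPM, whereas FGF6 libraries held 1.71, 1.5 and 1.17 CPM. No groups overlapped, and the log2 fold change went from -0.38 (SE 0.088, adjusted p = 0.000548) through -1.53 (SE 0.10, adjusted p = 7.65e-13) to -3.39 (SE 0.13, adjusted p = 1.06e-17), a 10.5-fold fall at 24 h.

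Mylip (ENSMUSG00000038175, GRCm38 chr13:45389742-45412022, plus strand) moved in opposite directions in the arms. It rose in vehicle libraries from 23.5, 22.9 and 22.2 CPM at 4 h to 39.1, 39.3 and 37.1 CPM at 24 h. In FGF6 libraries it held 12.1, 13.1 and 12.6 CPM at 4 h and 10.2, 8.72 and 10.5 CPM at 24 h. The log2 fold change between arms was -0.86 (SE 0.064, adjusted p = 1.14e-11) at 4 h, -1.43 (SE 0.063, adjusted p = 1.69e-16) at 8 h and -1.98 (SE 0.064, adjusted p = 1.87e-19) at 24 h. Abcg1, which exports sterol to lipoprotein particles, stood at 5.999, 5.19 and 5.14 CPM with vehicle and 2.74, 2.65 and 3.17 CPM with FGF6 at 4 h. Its log2 fold change was -0.94 (SE 0.12, adjusted p = 1.79e-07) at 4 h, -0.39 (SE 0.10, adjusted p = 0.00186) at 8 h and -0.89 (SE 0.10, adjusted p = 1.75e-08) at 24 h, so its smallest difference was at 8 h.

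The receptors differed from each other. Nr1h2, LXR beta, held 81.2, 81.0 and 72.6 CPM with vehicle and 80.3, 79.4 and 85.7 CPM with FGF6 at 24 h, and its log2 fold change was 0.06, 0.06 and 0.06 at the 3 times (adjusted p = 0.239, 0.27 and 0.213). At 24 h it passed as higher without the FGF6 replicate 1 (0.12, adjusted p = 0.0377), the vehicle replicate 1 (0.13, adjusted p = 0.0214) or the vehicle replicate 2 (0.13, adjusted p = 0.0247). Nr1h3, LXR alpha, was sparse, at 4.20, 3.53 and 3.22 CPM with vehicle and 1.89, 1.34 and 2.30 CPM with FGF6 at 8 h. It was lower, with a log2 fold change of -0.80 (SE 0.22, adjusted p = 0.00234) at 4 h, -1.0 (SE 0.21, adjusted p = 0.000167) at 8 h and -0.96 (SE 0.21, adjusted p = 0.000233) at 24 h. The macrophage list, whose cells use these exporters heavily, summed to 14.2 to 15.2 CPM in vehicle and 17.6 to 18.4 CPM in FGF6 libraries at 4 h. At 8 h the sums overlapped, at 10.7 to 12.2 CPM and 10.6 to 11.1 CPM. At 24 h they were 6.39 to 7.92 CPM in vehicle and 3.32 to 3.97 CPM in FGF6 libraries. The sum came mostly from Cd68, with Adgre1 and Ptprc at or under 2 counts.

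A second question was whether the effect of FGF6 differed between times, tested as an interaction in the same fit. From 4 to 8 h the effect moved downward for 19 members and upward for 2, Scap and Abcg1, against 15.1% and 15.5% of all genes. From 8 to 24 h it moved downward for 14 and upward for 5, against 22.5% and 22.6%. The 5 were Hmgcs1, Fdps, Fdft1, Nsdhl and Insig1. From 4 to 24 h it moved downward for 24 members, among them 16 of the 18 enzymes, against 25.2% of all genes. It moved upward for 0 members, against 28.3% of all genes. That count was also 0 at an unadjusted p under 0.05 and with voom or DESeq2, and 1 with library sizes alone. Abca1 had the largest shift from 4 to 24 h, -3.01 (SE 0.17, adjusted p = 6.55e-14), followed by Npc2 with -1.19 (SE 0.075, adjusted p = 7.68e-13) and Hsd17b7 with -1.18 (SE 0.068, adjusted p = 1.48e-13). Hmgcs1 moved by -1.20 (SE 0.073, adjusted p = 8.6e-12) from 4 to 8 h and back by 0.68 (SE 0.072, adjusted p = 2.53e-08) from 8 to 24 h. Without the vehicle 24 h replicate 3, 22 members differed downward from 4 to 24 h, Acat2 (-0.13, adjusted p = 0.104) and Ebp (-0.12, adjusted p = 0.13) losing their calls.

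The third comparison followed each arm over time. From 8 to 24 h in vehicle libraries, 27 of the 31 members rose, including all 18 enzymes with a median log2 fold change of 1.15, while 25.5% of all genes rose. Over this span 1 member fell, against 23.7% of all genes. Mvd rose most, by 1.78 (SE 0.09, adjusted p = 3.68e-14), followed by Insig1 with 1.71 (SE 0.058, adjusted p = 2.09e-17). Between 4 and 8 h the vehicle libraries had 6 members higher and 9 lower, against 21.2% and 21.7% of all genes, with a median over the enzymes of -0.06. From 4 to 24 h, 27 members were higher, against 30.9% of all genes, and 3 were lower, against 30%. The counts of members higher at 24 h were the same without the vehicle 24 h replicate 3.

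In FGF6 libraries, 23 members fell from 4 to 8 h, against 24% of all genes, and Abcg1 rose, against 24.1%. Of the enzymes, 15 fell, with a median of -0.50, and Hmgcs1 fell most, at -1.0 (SE 0.053, adjusted p = 4.54e-14). From 8 to 24 h, 23 members rose, among them 17 enzymes with a median of 1.12, against 31.1% of all genes, and Ebp was the enzyme not called (-0.05). Hmgcs1 rose by 2.12 (SE 0.053, adjusted p = 7.2e-21) over this span. Falls from 8 to 24 h in FGF6 libraries were seen for 4 members, against 31.2% of all genes. They were Abca1 (-1.93, SE 0.16, adjusted p = 7.16e-11), Npc2 (-1.08, SE 0.053, adjusted p = 5.61e-15), Scap (-0.30) and Mylip (-0.20). From 4 to 24 h, 22 members were higher with FGF6, against 35.2% of all genes, and 5 were lower, against 36%. The medians of the SREBP side relative to vehicle at 4 h were -0.02 and 1.11 in vehicle at 8 and 24 h, and -0.22, -0.66 and 0.50 with FGF6 at 4, 8 and 24 h. The LXR side stood at 0.24 and 0.32 in vehicle at 8 and 24 h, and at -0.81, -0.75 and -0.65 with FGF6 at the 3 times. Each of these medians with FGF6 was the value of Nr1h3. The 2 sides were not tested against each other, since the genes of a list are not replicates.

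**Figure D3:**
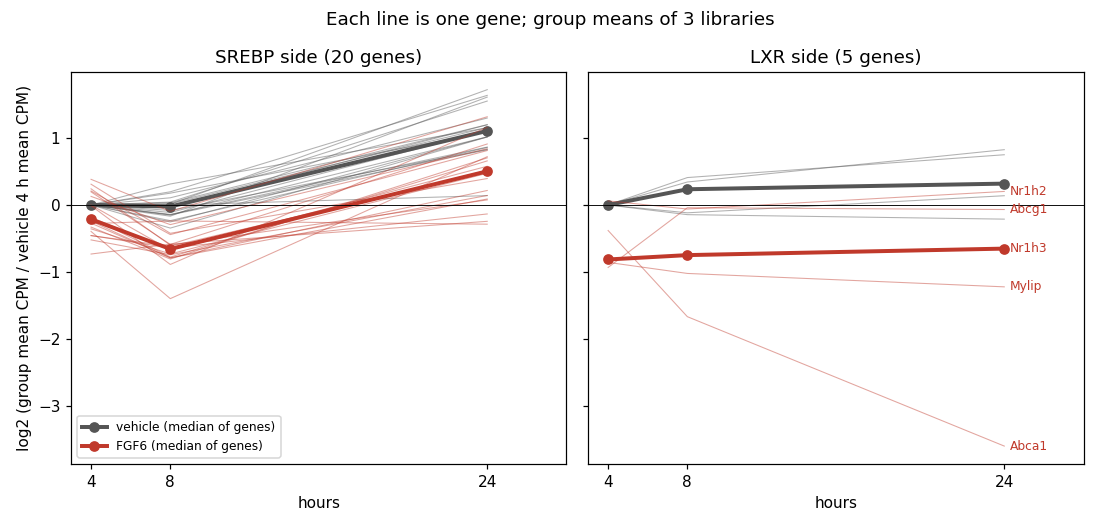
Log2 ratio of each group's mean CPM (3 libraries) to the vehicle mean at 4 h, against hours, for the 20 genes of the SREBP side (left) and the 5 of the LXR side (right); thin lines are genes, thick lines medians, grey vehicle and red FGF6. On the left both medians rise from 8 to 24 h with the FGF6 median lower (0.50 against 1.11 at 24 h), and on the right the FGF6 lines spread, with Abca1 lowest.

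Per kilobase of exon, in CPM per kilobase and as means of 3 libraries, Hmgcs1 was the most abundant member in vehicle libraries at 24 h (174), followed by Cyp51 (159.5) and Mvd (126.7). With FGF6 the order at 24 h was led by Cyp51 (115.6), with Hmgcs1 at 92.2 and Msmo1 at 91.4. Insig1 stood at 110.5 with vehicle and 74.9 with FGF6, against 27.5 and 10.8 for Insig2. The LXR targets were far lower, with Mylip at 11.9, Abca1 at 1.48 and Abcg1 at 1.32 in vehicle libraries at 24 h. Among the receptors, Nr1h2 stood at 23.3 and Nr1h3 at 1.54. The levels of Idi1 (4.61) and Fdps (10.4) are uncertain, because of the sequence they share with other genes.

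The wider pathway was followed in 45 further genes, 44 of which passed the filter. At 24 h, 14 were higher, 22 lower and 8 not called, beside the 35.9% and 37.9% of all genes given above. At 8 h these counts were 16, 21 and 7, beside 32.4% higher and 38.4% lower of all genes. At 4 h they were 14, 15 and 15, near the 28.6% higher and 34.2% lower of all genes. Of 13 tested LXR targets, partners and oxysterol enzymes, 10 were lower and Arl4c was higher at 24 h. At 4 h, 5 were lower, 2 higher and 6 not called, and at 8 h 9 were lower and 2 higher, beside the same shares of all genes. Lpcat3 of this list held 140.7, 134.3 and 138.2 CPM with vehicle and 155.6, 146.5 and 145.6 CPM with FGF6 at 4 h. At 24 h it held 195.5, 203.6 and 214.6 CPM with vehicle and 151.3, 150.6 and 161.5 CPM with FGF6. Pltp, the phospholipid transfer protein, held 69.7, 76.6 and 74.2 CPM with vehicle and 6.93, 6.82 and 6.68 CPM with FGF6 at 24 h, a log2 fold change of -3.43 (SE 0.058, adjusted p = 3.75e-25); it shares 495 exonic bases with Ctsa on the opposite strand. Smpdl3a, an LXR-induced phosphodiesterase, held 5.11, 4.13 and 5.003 CPM and 0.26, 0.071 and 0.11 CPM, from at most 146 and at most 7 counts. Its log2 fold change was -4.98 (SE 0.32, adjusted p = 2.97e-13). Apoe, an apolipoprotein that carries exported cholesterol, held 15.2, 13.7 and 13.8 CPM with vehicle and 1.495, 1.29 and 1.39 CPM with FGF6 at 24 h, groups that did not overlap. The log2 fold change of Apoe was 0.04 at 4 h (adjusted p = 0.66), -0.36 (SE 0.087, adjusted p = 0.000743) at 8 h and -3.35 (SE 0.13, adjusted p = 1.04e-17) at 24 h. The exporter relative Abca7 was lower, with a log2 fold change of -1.03 (SE 0.05, adjusted p = 9.35e-16) at 24 h. Arl4c, a small GTPase gene that LXR can induce, was higher at all times, with 15.7, 14.4 and 15.1 CPM against 46.9, 46.7 and 50.5 CPM at 24 h and log2 fold changes of 1.69, 1.80 and 1.68 (SE 0.058, adjusted p = 8.04e-19).

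The oxysterol enzymes were lower at 8 h and 24 h. Cyp27a1, the mitochondrial sterol 27-hydroxylase, held 6.83, 6.27 and 6.90 CPM with vehicle and 0.98, 1.07 and 0.99 CPM with FGF6 at 24 h, a log2 fold change of -2.71 (SE 0.15, adjusted p = 2.44e-14). Ch25h, the 25-hydroxylase, was lower at 24 h, the log2 fold change being -3.13 (SE 0.36, adjusted p = 1.96e-08) from at most 67 and at most 10 counts. Cyp7b1, the oxysterol 7-hydroxylase, held 0.49, 0.57 and 0.92 CPM with vehicle at 24 h and at most 3 counts in any FGF6 library (adjusted p = 6.19e-06). Apoc1, an apolipoprotein gene, held 0.84, 1.18 and 1.05 CPM with vehicle at 24 h and at most 2 counts with FGF6 (adjusted p = 1.91e-07). For Abcg4, a sterol exporter, no FGF6 library of 4 or 8 h exceeded 3 counts, against at most 13 and 15 counts with vehicle, and the 24 h difference was not called (adjusted p = 0.0779). Rxra, the usual partner of LXR, was lower, with a log2 fold change of -0.36 (SE 0.04, adjusted p = 1.19e-08) at 24 h. Rxrb, the other partner on the list, was not lower. It held 70.4, 73.7 and 70.5 CPM with vehicle and 72.2, 73.4 and 75.8 CPM with FGF6 at 24 h. At 8 h it held 66.9, 70.1 and 68.5 CPM with vehicle and 79.9, 78.4 and 77.3 CPM with FGF6.

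Among 8 uptake and storage genes, 3 were higher and 4 lower at 24 h, where 35.9% and 37.9% of all genes were, so that the share higher was near that of all genes. Lrp8, a lipoprotein receptor, held 78.9, 76.0 and 78.4 CPM with vehicle and 183.4, 191.1 and 192.4 CPM with FGF6 at 24 h. Its log2 fold changes were 0.49, 1.06 and 1.28 (SE 0.058, adjusted p = 2.34e-16). The receptors Vldlr and Lrp1 of this list moved otherwise. Mean CPM of Vldlr with vehicle and FGF6 were 12.7 and 16.6 at 4 h, and 4.42 and 2.89 at 8 h. At 24 h they were 3.10 and 3.84, from overlapping libraries. Lrp1 held 2238, 2206 and 2079 CPM with vehicle and 1722, 1747 and 1748 CPM with FGF6 at 24 h. Soat1, which esterifies cholesterol for storage, was higher by 0.90 at 4 h, 1.23 (SE 0.034, adjusted p = 1.45e-20) at 8 h and 0.60 at 24 h, and Nceh1, a cholesteryl ester hydrolase, by 0.81, 1.1 and 1.41 (SE 0.051, adjusted p = 2.53e-18). Lipa, the lysosomal acid lipase that frees lipoprotein cholesterol, held 214.2, 230.3 and 242.7 CPM with vehicle and 63.8, 61.1 and 67.9 CPM with FGF6 at 24 h. It was lower, with a log2 fold change of -1.83 (SE 0.058, adjusted p = 1.11e-19), as were the high density lipoprotein receptor Scarb1 (-0.83) and its lysosomal relative Scarb2 (-1.0).

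Of 16 genes of SREBP processing and sterol transfer, 5 were higher and 7 lower at 24 h, shares near those of all genes. Mean CPM of Mbtps2 with vehicle and FGF6 were 51.2 and 65.8 at 4 h, 45.9 and 64.9 at 8 h, and 52.1 and 87.7 at 24 h. Those of Mbtps1 were 253.7 and 233.8, 251.7 and 226.5, and 262.3 and 253.3, the last from overlapping libraries. Mbtps2 shares 2867 exonic bases with Yy2 on the same strand. Gramd1b, a carrier of cholesterol from the plasma membrane to the endoplasmic reticulum, was higher by 0.86, 1.36 and 1.246 (SE 0.062, adjusted p = 1.48e-15) at the 3 times. Its relative Gramd1c was lower, with a log2 fold change of -0.81 (SE 0.26, adjusted p = 0.00737), -1.38 (SE 0.24, adjusted p = 1.77e-05) and -0.76 (SE 0.24, adjusted p = 0.00649). The 4 h call of Gramd1c was lost without the FGF6 4 h replicate 3 (-0.62, adjusted p = 0.0569), and its 24 h call without the FGF6 24 h replicate 1 (-0.50, adjusted p = 0.08) or the vehicle 24 h replicate 2 (-0.60, adjusted p = 0.0557). Of 7 isoprenoid and other sterol enzymes, 5 were higher and 1 was lower at 24 h, against 35.9% and 37.9% of all genes. Examples of the higher ones were Ggps1, which makes geranylgeranyl diphosphate (0.74, SE 0.074, adjusted p = 1.64e-09), and Pdss1, which makes the ubiquinone side chain (0.59, SE 0.081, adjusted p = 3.82e-07). Dhdds of this list went the other way. Its mean CPM with vehicle and FGF6 were 57.4 and 42.0 at 4 h, 66.7 and 47.5 at 8 h, and 58.8 and 49.2 at 24 h, without overlap. Lbr, a sterol C14-reductase like Tm7sf2, was higher by 0.36 (SE 0.036, adjusted p = 1.84e-09) where Tm7sf2 was lower, with a log2 fold change of -0.96 (SE 0.073, adjusted p = 8.46e-12).

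**Figure D4:**
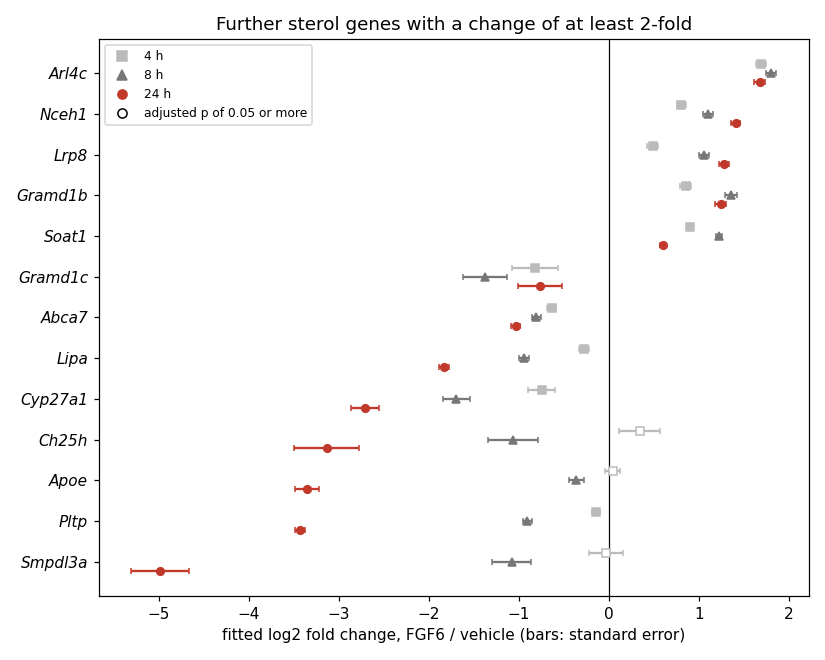
Fitted log2 fold changes with FGF6 against vehicle (horizontal axis, bars for the standard error) at 4, 8 and 24 h for 13 further sterol genes with a change of at least 2-fold at any time; open symbols have an adjusted p of 0.05 or more, and genes with at most 3 counts in a group are left out. Nceh1, Lrp8, Soat1, Gramd1b and Arl4c lie above 0 at all 3 times, and Smpdl3a lies lowest at 24 h (-4.98).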

How the data were processed

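Total RNA of the 18 libraries was sequenced on an Illumina HiSeq instrument. The authors aligned reads with STAR to GRCm38 and counted them per gene with Subread featureCounts against a GENCODE annotation. Versions and the handling of strand and of multiply mapped reads are not given in the sources used here. The deposited table holds raw counts per Ensembl gene for 48023 genes, and 18 of 18 columns were matched to samples by name. Symbols, positions and exon lengths came from the GENCODE annotation of GRCm38, in which 98.5% of the gene identifiers were found. Members and gene lists were chosen with earlier results of these data known.

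Genes were kept by edgeR's filterByExpr over the 6 groups (15071 genes). Counts were scaled by TMM (factors 0.951 to 1.05) and fitted in 1 quasi-likelihood model over all 18 libraries (edgeR 4.0.16, limma 3.58.1, R 4.3.3), with contrasts for FGF6 against vehicle at each time, their differences between times and the changes within each arm. P-values were adjusted by Benjamini-Hochberg over all tested genes, separately for each contrast, and called under 0.05; the threshold of 0.25 used in the study was an alternative. Standard errors are those implied by the F statistic. The biological coefficient of variation was 0.0458. CPM are counts per 1000000 of the scaled total of kept genes, and 3 counts were taken as the floor below which no fold is given. The scripts were tested on simulated data. Alternatives were voom, DESeq2 1.42.0, other scalings and filters, a replicate block and leaving out each library; those for changes within arms with a library left out, for the wider list and for single differences between times were chosen after seeing the data. The reported fit used no pairing, and the labels do not say whether same-numbered libraries belong together. The correlations of deviations of same-numbered libraries ran from -0.028 to 0.049, which does not settle this. All 31 genes are named. Of the wider list, those with an adjusted p under 0.05 and a change of at least 2-fold at any time are named. Rxra, Rxrb, Lpcat3, Vldlr, Lrp1, Scarb1, Scarb2, Mbtps1, Mbtps2, Ggps1, Pdss1, Dhdds and Lbr were named after their values were seen. Promoter windows are from RefSeq (GRCm38.p6). Shared sequence is the share of a gene's 50-base stretches also found in transcripts of other genes. The 6 members without a window are Fdps, Fdft1, Sqle, Stard4, Npc1 and Abcg1.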

Additional observations from a re-analysis of the deposited data

Results flagged for a closer look

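For 64 values, the effect of FGF6 on a gene differed between times of treatment (edgeR interaction test, adjusted p under 0.05 over all tested genes). Each value is the log2 fold change with FGF6 against vehicle at the later time minus that at the earlier time, from 3 libraries per group; the comparisons share libraries.

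From 4 to 8 h, the effect was more negative for Hmgcs1 (-1.20), Pmvk (-0.41), Mvd (-0.42), Fdps (-0.79), Fdft1 (-0.67), Sqle (-0.69), Lss (-0.26), Cyp51 (-0.50), Msmo1 (-0.52), Nsdhl (-0.23), Hsd17b7 (-0.69), Sc5d (-0.45), Srebf2 (-0.21), Insig1 (-0.89), Insig2 (-0.49), Stard4 (-0.59), Npc2 (-0.22), Abca1 (-1.15) and Mylip (-0.58). It was more positive for Scap (0.21) and Abcg1 (0.55).

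From 8 to 24 h, the effect was more negative for Mvk (-0.58), Mvd (-0.35), Lss (-0.27), Cyp51 (-0.28), Tm7sf2 (-0.40), Hsd17b7 (-0.49), Ebp (-0.19), Dhcr7 (-0.35), Scap (-0.17), Npc1 (-0.29), Npc2 (-0.97), Abca1 (-1.86), Abcg1 (-0.50) and Mylip (-0.54). It was more positive for Hmgcs1 (0.68), Fdps (0.66), Fdft1 (0.28), Nsdhl (0.20) and Insig1 (0.34), genes whose fall with FGF6 was larger at 8 h than at 24 h.

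From 4 to 24 h, the effect was more negative for Acat2 (-0.16), Hmgcs1 (-0.52), Mvk (-0.61), Pmvk (-0.50), Mvd (-0.77), Idi1 (-0.41), Fdft1 (-0.39), Sqle (-0.64), Lss (-0.53), Cyp51 (-0.77), Tm7sf2 (-0.50), Msmo1 (-0.62), Hsd17b7 (-1.18), Ebp (-0.15), Sc5d (-0.49), Dhcr7 (-0.53), Srebf2 (-0.36), Insig1 (-0.55), Insig2 (-0.57), Stard4 (-0.53), Npc1 (-0.26), Npc2 (-1.19), Abca1 (-3.01) and Mylip (-1.12), and none was more positive.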

How the results depend on the processing

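Voom called the same number of members in each direction between the arms as edgeR did at each time, and every direction called with edgeR kept its sign in the alternatives run. Directions that turned belonged to values near 0 that were not called in the reported fit. At 4 h these were Sqle (0.000 with voom and with the replicate block, 0.023 with DESeq2, 0.007 without a filter, 0.027 with at least 10 counts in every library, 0.036 with the libraries of 4 h alone, and from -0.037 to 0.045 with a library left out, including 0.036 and 0.04) and Insig1 (0.013 with DESeq2, 0.015 with at least 10 counts, 0.025 with the libraries of 4 h alone, and from -0.059 to 0.067 with a library left out, including 0.029 and 0.044). Scaling by library size alone turned Srebf1 (-0.044), Srebf2 (-0.019), Npc2 (-0.014) and Nr1h2 (-0.04) at 4 h and Nr1h2 at 8 h (-0.008); it moved the median of all genes to -0.15 at 4 h and -0.114 at 8 h.

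Counts moved as follows. Members higher at 8 h were 2 with DESeq2, 2 with at least 10 counts, 3 with the libraries of 8 h alone and 2 at the threshold of 0.25, in place of 1, and members lower at 8 h were 24 in place of 27 with DESeq2, which did not call Msmo1, Srebf2 and Npc2. Members higher at 4 h were 4 with library sizes alone, 5 with upper-quartile factors and 11 at 0.25, in place of 7; Idi1, Fdft1 and Sc5d lost their 4 h calls with library sizes alone (0.11, 0.09 and 0.03). Members higher at 24 h were 2 at 0.25, and DESeq2 gave 27 lower in place of 28, without Idi1. Library sizes alone also gave 1 member with an effect more positive at 24 than at 4 h, 2 members lower in vehicle from 8 to 24 h and 3 higher with FGF6 from 4 to 8 h. A change of at least 2-fold as well left 0 higher and 0 lower at 4 h, 0 and 6 at 8 h, and 0 and 6 at 24 h; for differences between times it left 0 and 2 from 4 to 8 h, 0 and 1 from 8 to 24 h, and 4 lower from 4 to 24 h.

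With 1 library left out, members higher ranged from 5 to 9 at 4 h, 1 to 2 at 8 h and 1 to 3 at 24 h, and members lower from 16 to 18, 24 to 27 and 26 to 28. Differences between times ranged from 14 to 21 lower and 2 higher throughout (4 to 8 h), 12 to 15 lower and 4 to 5 higher (8 to 24 h), and 22 to 24 lower and 0 higher throughout (4 to 24 h). Changes within vehicle ranged from 4 to 6 higher and 6 to 10 lower (4 to 8 h), 26 to 27 and 1 (8 to 24 h), and 25 to 27 and 1 to 3 (4 to 24 h), and within FGF6 from 1 to 2 and 22 to 23, 23 to 24 and 3 to 4, and 20 to 22 and 5. Of the 64 differences between times, 0 turned sign over 1344 recomputed values, of which 66 lost the call.

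Whether same-numbered libraries were paired is not known: 0 of 9 pairs had a correlation over 0.1, and 9 of 18 libraries correlated best with their own number. The replicate block changed no member's call between arms and moved the calls over all genes from 9460 to 9465, 10664 to 10686 and 11115 to 11116. Counts are fewest for Abca1, Nr1h3, Abcg1 and Idi1, each under 20 CPM in every library with at least 32, 36, 74 and 138 counts, and for the low-count genes of the wider list.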
